A study of Mus musculus with 12 samples.

Results

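The troponins and tropomyosins are the calcium switch of the sarcomere's thin filament. The 10 genes described here are Tnnt1, Tnnt2 and Tnnt3 (troponin T), Tnni1, Tnni2 and Tnni3 (troponin I), Tnnc1 (troponin C), and Tpm1, Tpm2 and Tpm3 (tropomyosin). They were chosen by symbol from the 51826 entries of the count table, and all 10 had an entry. No member was at 0 counts in any of the 12 libraries, and the lowest count of any member was 7. All 10 passed the filter on low counts in each comparison.

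Tropomyosin lies along the actin filament and covers the sites where myosin heads attach. Calcium binds troponin C, troponin I then lets go of actin, and troponin T, which ties the complex to tropomyosin, passes the movement on so that myosin can bind. Each subunit has paralogs known from different muscles: Tnnt2, Tnni3 and Tnnc1 are the cardiac genes, Tnnt1 and Tnni1 the slow skeletal genes, and Tnnt3 and Tnni2 the fast skeletal genes. Tnni1 is also the troponin I of the fetal heart, which Tnni3 later replaces, and Tnnc1 serves slow skeletal muscle as well. Tpm1 is the main tropomyosin of heart muscle, Tpm2 is known from skeletal and smooth muscle, and Tpm3 encodes both slow skeletal and cytoskeletal tropomyosins.

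Poly(A) RNA was sequenced from the atria and ventricles of 3 CUG960 +dox mice (V119, V120 and V123) and 3 MHCrtTA +dox control mice (V327, V333 and V334), which gives 4 groups of 3 libraries. CUG960 mice had the genotype TREDT960I(H)/MHCrtTA(hemi): they were homozygous for a transgene with 960 CUG repeats in DMPK sequence, as found in myotonic dystrophy type 1, and hemizygous for MHCrtTA, which drives the reverse tetracycline transactivator from the α myosin heavy chain promoter in cardiomyocytes. Controls were MHCrtTA(hemi) and lacked the repeat transgene, so both groups carried the transactivator. All 6 mice were FvB females of 10 weeks with dox induction from postnatal day 1. The repeat RNA was thus driven in cardiomyocytes, while the libraries held RNA from every cell type of the chamber. Total counts were between 116127966 and 160676189 per library, and the 10 members together made up between 1.21% and 1.974% of them. Each value sums all transcripts of a gene, so exon choice within Tnnt2, Tpm1 or any other member was not measured.

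Library identity was checked against chamber markers. Myl2, the ventricular regulatory light chain, was between 8504 and 10520 CPM (counts scaled to a common library size by TMM, the trimmed mean of M values) in ventricles and between 8.82 and 33.5 CPM in atria. The highest atrial Myl2 was in control V327, whose atria also had the most Myl3, another ventricular light chain, at 20.7 CPM. Myl7, the atrial light chain, was between 2521 and 3308 CPM in atria. In ventricles Myl7 was 8.02, 4.98 and 19.3 CPM in controls V327, V333 and V334 and 0.192, 0.304 and 55.9 CPM in CUG960 mice V119, V120 and V123. The ventricles of V123 therefore stood apart with the most Myl7, and those of V119 and V120 had the least. Atrial markers did not all follow this order. Nppa was highest in the ventricles of V120, at 224 CPM, and Bmp10 in those of V123, at 0.208 CPM, was below every control.

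The promoters of the members are shown first for the strongly expressed thin filament genes and for the slow skeletal genes whose levels are described below. RefSeq promoter sequence (GRCm38.p6) was at hand for 8 members, and not for Tnnt3 and Tnni2. The 100 bases before each gene's first listed start are printed 5′ to 3′ on the gene's own strand, with capitals for matches, on either strand, to the MCAT element (spelled CATTCC), to the site of GATA factors (spelled AGATAA), to the core promoter's TATA box (spelled TATAAA), and to the MEF2 and CArG elements.
Tnnt2: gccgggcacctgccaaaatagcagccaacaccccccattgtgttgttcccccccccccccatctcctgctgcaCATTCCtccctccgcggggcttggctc
Tnnc1: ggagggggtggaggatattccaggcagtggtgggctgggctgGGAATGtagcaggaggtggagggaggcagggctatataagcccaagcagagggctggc
Tnni3: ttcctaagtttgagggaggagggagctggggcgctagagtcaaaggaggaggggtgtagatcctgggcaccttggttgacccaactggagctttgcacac
Tnnt1: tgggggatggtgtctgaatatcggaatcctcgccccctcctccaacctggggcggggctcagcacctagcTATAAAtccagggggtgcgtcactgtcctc
Tnni1: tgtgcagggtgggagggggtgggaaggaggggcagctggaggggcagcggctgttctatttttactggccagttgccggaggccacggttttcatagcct
The windows lie at chr1:135836234-135836333 on the plus strand (Tnnt2), chr9:67049214-67049313 on the minus strand (Tpm1), chr14:31208212-31208311 on the plus strand (Tnnc1), chr7:4522529-4522628 on the minus strand (Tnni3), chr7:4515976-4516075 on the minus strand (Tnnt1) and chr1:135799321-135799420 on the plus strand (Tnni1). MCAT, the element known to bind TEAD factors in cardiac genes, was present in the windows of 3 of the 8 members, Tnnt2, Tpm1 and Tnnc1, and in 4.79% of 27025 promoters of the same length. The Tpm1 window is not printed, since all 100 of its bases lie in annotated exons of other Tpm1 transcripts. Of the printed windows, 29 bases of Tnnt1 and 19 of Tnni1 lie in exons of transcripts that start earlier, and 0 in Tnnt2, Tnnc1 and Tnni3. The first base of MCAT was 27 bases before the start in Tnnt2 on the plus strand of the gene, and 56 and 58 bases before it in Tpm1 and Tnnc1 on the opposite strand. Tnnt1 held the spelling TATAAA beginning 30 bases before its start, a match found in 5.95% of promoters. Other spellings of the TATA box were not searched. The Tnnc1 window holds tatataa near its end, which is in lower case because it does not match TATAAA. Of the members not printed, Tpm3 held the GATA factor site (3.63% of promoters) and Tpm2 held none of the 5 motifs. No member's window had a match to MEF2 (1.003% of promoters) or CArG (0.596%), and the windows of Tnni1 and Tnni3 had no match to any of the 5. MEF2 was searched in its full consensus, and when only the first 9 bases of that consensus were asked for, a search added after the sequences were seen, the Tnni1 window had a match (ctatttttac holds it), as did 2.71% of promoters.

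In control hearts, 4 genes carried nearly all of the troponin and tropomyosin RNA in both chambers. Per kilobase of the longest annotated transcript, the level of Tnni3 was highest in atria at 3907 ± 192 CPM per kb (SD, n = 3). Tpm1 (1369 ± 65.8), Tnnt2 (1235 ± 93.5) and Tnnc1 (1182 ± 77.4 CPM per kb) followed, and neighbours in the order of these 3 overlapped. In ventricles Tnni3 was at 5257 ± 747, Tnnc1 at 3246 ± 418, Tpm1 at 2471 ± 221 and Tnnt2 at 2109 ± 290 CPM per kb, with overlap between Tpm1 and Tnnt2 only. The longest Tnnt2 transcript has 3330 bases, against 906 for its longest coding sequence, and the levels per length rest on the former. The order of the 4 genes depends on this choice. Without length correction, control ventricles had Tpm1 at 7141 ± 638, Tnnt2 at 7022 ± 963.9, Tnni3 at 4794 ± 681 and Tnnc1 at 2340 ± 301 CPM. In control atria Tnni3 (3563 ± 174.8 CPM) was then below Tnnt2 (4112 ± 311.5) and Tpm1 (3957 ± 190 CPM). The next level in atria was that of Tpm2, at 93.3 ± 12.1 CPM per kb, and in ventricles that of Tpm2 was 34.0 ± 4.08. At the low end of control ventricles were Tnni2 (0.314 ± 0.0659), Tnnt3 (0.153 ± 0.0129) and Tnni1 (0.111 ± 0.042 CPM per kb), of which the last pair overlapped.

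**Figure D1:**
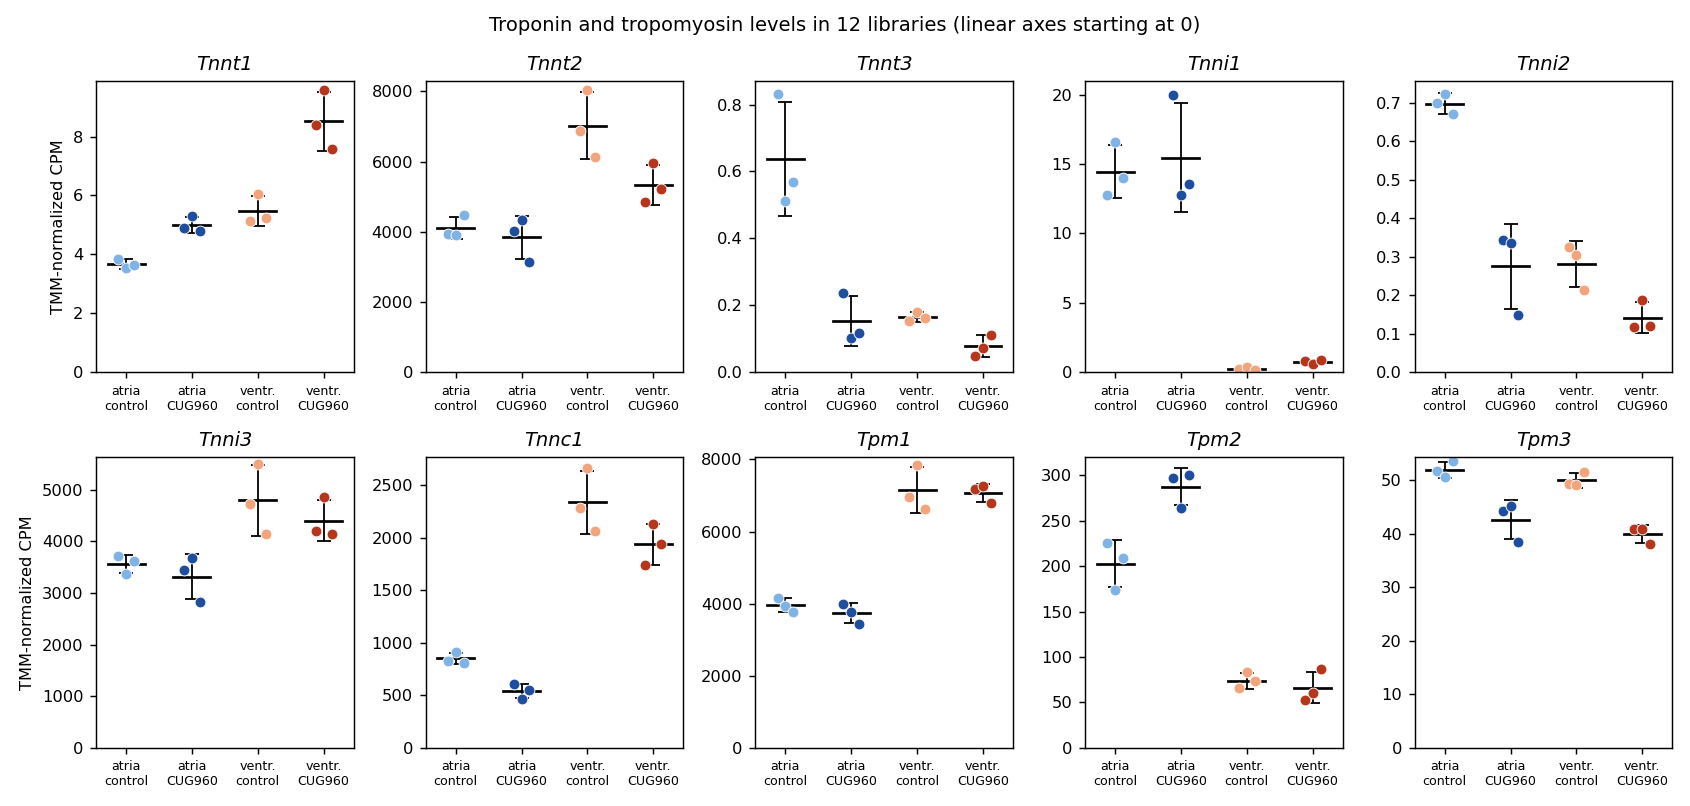
Each panel plots 1 gene's TMM-normalized CPM (linear axis from 0, scale set per gene) in the 4 groups, with a point per library, a horizontal line for the mean and bars for the SD of 3 mice. Tnni1 is high in atria and near 0 in ventricles, Tnnt1 is higher in CUG960 than in control mice in both chambers, and Tnnc1 is lower in CUG960 atria.

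The chambers of control mice differed in 9 of the 10 members. Atria were compared with ventricles by edgeR's quasi-likelihood test, with p-values adjusted by the Benjamini-Hochberg method over 17451 genes and called at an adjusted p under 0.05. By this rule 4 members were higher in atria and 5 were lower, where 28.3% of all genes tested were higher and 27.5% were lower. The cardiac genes were all lower in atria: the log2 fold change (atria over ventricles) was −1.46 (SE 0.11) for Tnnc1, −0.86 (SE 0.10) for Tpm1, −0.78 (SE 0.12) for Tnnt2 and −0.43 (SE 0.11) for Tnni3. The slow skeletal Tnnt1 was lower as well, at −0.58 (SE 0.11). Tpm3 was between 50.5 and 53.6 CPM in control atria and between 49.0 and 51.6 CPM in control ventricles and was not called (edgeR adjusted p = 0.496).

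Tnni1, the slow and fetal troponin I, had the greatest chamber difference of the members. It was at 12.8, 16.6 and 14.0 CPM in the atria of V327, V333 and V334, and at 0.235, 0.332 and 0.152 CPM in their ventricles, 60.3-fold apart (log2 fold change 5.91, SE 0.24, edgeR adjusted p = 4.79e-07). The other members higher in control atria were Tnnt3 (log2 fold change 1.94, SE 0.30), Tpm2 (1.45, SE 0.12) and Tnni2 (2.47-fold, SE 0.25 on the log2 scale). Tpm2 was at 203 ± 26.2 CPM in atria and 73.9 ± 8.87 CPM in ventricles.

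In CUG960 mice 7 members differed between chambers, with 2 higher in atria (26.7% of 17559 genes tested) and 5 lower (27.5%). Tnni1 remained the member with the greatest difference, 20.6-fold (log2 fold change 4.37, SE 0.22). Tpm2 was higher in atria by 2.10 on the log2 scale (SE 0.17) and Tnnc1 was lower, at −1.85 (SE 0.12). The fast skeletal genes overlapped between chambers and were not called in CUG960 mice, with log2 fold changes of 0.97 for Tnnt3 (edgeR adjusted p = 0.124) and 0.94 for Tnni2 (edgeR adjusted p = 0.0809). Calls of Tnni3 were lost without control V327 or V333 and without CUG960 V123 (edgeR adjusted p between 0.052 and 0.0718), and that of Tnnt2 in CUG960 mice was lost without V123 (0.059).

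**Figure D2:**
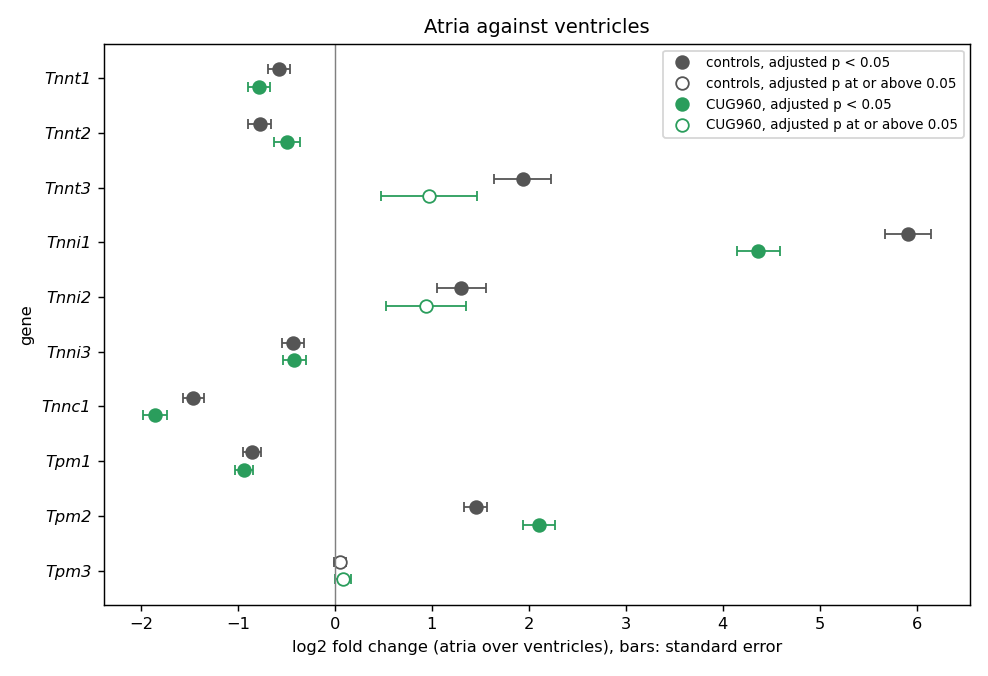
The log2 fold change of atria over ventricles is plotted for each gene in control mice (grey) and CUG960 mice (green), with bars for the standard error and filled points for an adjusted p under 0.05. Tnni1, Tpm2, Tnnt3 and Tnni2 lie to the right (higher in atria), Tpm3 lies at 0, and the cardiac genes and Tnnt1 lie to the left.

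Against these chamber levels, the study asked what the repeat RNA changes in the transcriptome of each chamber. In atria, 6 of the 10 members were called between CUG960 and control mice. Tpm2 and Tnnt1 rose, 2 of 10 where 7.95% of 17650 genes tested rose. Tnnt3, Tnni2, Tnnc1 and Tpm3 fell, 4 of 10 where 6.62% of genes fell. With a fold change of at least 1.5 as well, 0 members rose (3.37% of genes) and 3 fell (2.12% of genes), namely Tnnt3, Tnni2 and Tnnc1. The groups did not overlap in 6 members, as in 35.7% of genes tested. The median log2 fold change of the members was −0.10, and that of all genes tested was −0.01. RNA of a gene in a chamber can be lower because there are fewer cells that express it or less of it per cell, and bulk libraries do not tell these apart.

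Tnnc1, the calcium-binding subunit, fell in atria while the other cardiac members were not called. It was at 831, 915 and 809 CPM in the atria of V327, V333 and V334, and at 607, 466 and 551 CPM in those of V119, V120 and V123. Every CUG960 library was below every control, and Tnnc1 fell by 36.5% (log2 fold change −0.65, SE 0.10, edgeR adjusted p = 0.00551). Tnnt2 (log2 fold change −0.10, SE 0.12), Tnni3 (−0.10, SE 0.10) and Tpm1 (−0.09, SE 0.08) overlapped between the groups. Within each atrial library, the ratio of Tnnc1 to Tnni3 per length was 0.284, 0.344 and 0.283 in controls and 0.223, 0.16 and 0.246 in CUG960 mice, with no overlap. The ratio of Tnnt2 to Tnni3 was 0.316 ± 0.0238 in control atria and 0.316 ± 0.0096 in CUG960 atria. Tnnc1 overlaps Nisch on the opposite strand, which was at 181 CPM in control and 156 CPM in CUG960 atria.

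The fast skeletal genes Tnnt3 and Tnni2, which lie 54425 bases apart on chromosome 7, had the largest decreases of the members in atria from very low levels. Tnnt3 was at 0.831, 0.511 and 0.568 CPM in control atria and at 0.237, 0.103 and 0.118 CPM in CUG960 atria, which is 89 to 127 counts against 16 to 34 counts. No CUG960 library reached the control range, and the level was 4.16-fold lower (log2 fold change −2.05, SE 0.37, edgeR adjusted p = 0.00999). Tnni2 was at 0.700, 0.724 and 0.670 CPM in controls and at 0.342, 0.334 and 0.147 CPM in CUG960 mice, which is 105 to 126 counts against 20 to 52 counts. Here too the groups were apart, and the level was 2.53-fold lower (log2 fold change −1.34, SE 0.32, edgeR adjusted p = 0.027). The call of Tnni2 was lost on leaving out any of V119, V120, V327, V333 or V334 (adjusted p between 0.0546 and 0.0788), with log2 fold changes between −1.53 and −1.31. Tnnt3 overlaps Prr33 on the opposite strand, which was at 5.93 CPM in control and 3.71 CPM in CUG960 atria, far above Tnnt3 and lower in the same direction, and its part in the Tnnt3 value was not tested.

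Among other genes of fast skeletal muscle, every marker tested in atria had a negative log2 fold change. Those that were higher in CUG960 atria were too low to be tested. Of 12 fast skeletal markers 7 could be tested in atria, where 0 were called higher and 1 lower (7.95% and 6.62% of all genes tested). The median log2 fold change of the 7 was −0.27. The 12 markers summed to 49.5, 66.5 and 54.9 CPM in control atria and to 45.8, 41.4 and 41.4 CPM in CUG960 atria, without overlap. Most of this came from Casq1, the calsequestrin of skeletal muscle, which was at 36.1 ± 8.09 and 35.0 ± 3.50 CPM. The myosin heavy chains of fast fibers were nearly absent. Myh4 was at 0 to 3 counts in control and 5 to 6 counts in CUG960 atria, and Myh2 at 2 to 4 and 7 to 12 counts, both without overlap and opposite in direction to Tnnt3 and Tnni2. Myh1 was at 5 to 14 counts in control and 3 to 10 counts in CUG960 atria, with overlap. Pvalb, a calcium buffer of fast fibers, was at 0.0355 ± 0.0091 and 0.117 ± 0.0676 CPM. These 4 genes were too low to be tested in atria. So was Myf6, which was at 0 counts in the atria of controls V327 and V334 and of CUG960 mouse V119. The marker that fell was Mybpc2, the fast skeletal myosin-binding protein C, from 16.5 ± 2.21 to 4.10 ± 1.13 CPM (log2 fold change −2.01, SE 0.19, edgeR adjusted p = 0.000696). Without Casq1 and Mybpc2 the other 10 markers summed to 4.81, 4.08 and 4.18 CPM in control atria and to 3.77, 4.13 and 3.56 CPM in CUG960 atria, with overlap. This sum leaves out the marker that was called, so it does not describe the whole list. The part of the fast skeletal markers in the Tnnt3 and Tnni2 results was not tested.

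Tpm2, the tropomyosin known from skeletal and smooth muscle, rose in atria. It was at 225, 174 and 209 CPM in controls and at 297, 264 and 301 CPM in CUG960 mice, with the groups apart. The increase was 41.6% (log2 fold change 0.50, SE 0.10, edgeR adjusted p = 0.0154). Leaving out V119 (0.0588) or fitting all 12 libraries together (0.0531) ended the call with a log2 fold change of 0.48 and 0.50. Of 9 smooth muscle markers, 1 rose in atria and 1 fell (7.95% and 6.62% of all genes tested). Tagln, an actin-binding protein, rose (log2 fold change 1.21, SE 0.31) and Smtn fell (log2 fold change −0.37, SE 0.09). The markers summed to 651, 521 and 507 CPM in control atria and to 575, 497 and 714 CPM in CUG960 atria, with Acta2 as the most abundant, and their part in the Tpm2 result was not tested.

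Tnnt1, the slow skeletal troponin T, was the member that rose in both chambers, and Tpm3 the one that fell in both. In atria Tnnt1 was at 3.85, 3.52 and 3.65 CPM in controls and at 4.90, 5.32 and 4.79 CPM in CUG960 mice. All 3 CUG960 libraries were above the controls (36.3% higher, log2 fold change 0.45, SE 0.10, edgeR adjusted p = 0.0228). Tpm3 was at 51.6, 50.5 and 53.6 CPM in control atria and at 44.3, 45.2 and 38.4 CPM in CUG960 atria, again with no overlap. Tpm3 fell by 18.0% there (log2 fold change −0.29, SE 0.07, edgeR adjusted p = 0.0362). Neither atrial call held on leaving out V119, V120, V333 or V334 (adjusted p between 0.0555 and 0.117), and that of Tpm3 was lost without V327 as well (0.0723). Of the 50-base stretches of Tpm3 transcripts, 23.2% also occur in Tpm3-rs7, so reads may be divided between them. Tpm3-rs7 was at 0.152 CPM in control and 0.169 CPM in CUG960 atria, and its part in the Tpm3 value was not tested.

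Tnni1, by contrast with its chamber pattern, was not called between genotypes in atria. It was at 12.8, 16.6 and 14.0 CPM in controls and at 20.0, 12.8 and 13.6 CPM in CUG960 mice, with V119 the highest of the 6 (log2 fold change 0.10, SE 0.17, edgeR adjusted p = 0.757). It came to −0.13 on the log2 scale when V119 was left out.

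**Figure D3:**
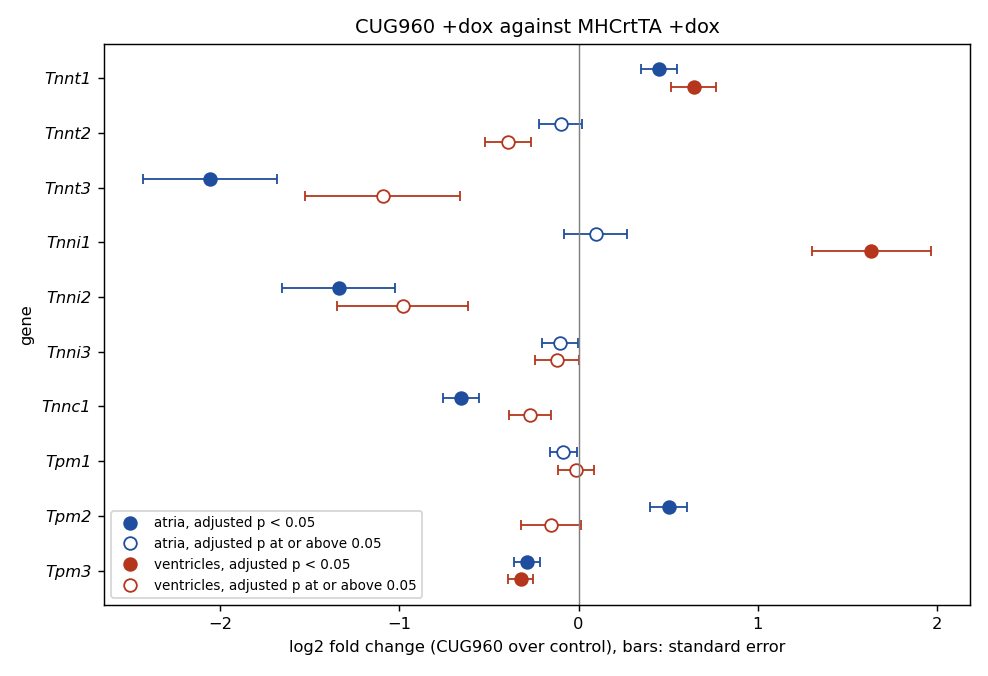
The log2 fold change of CUG960 over control mice is plotted for each gene in atria (blue) and ventricles (red), with bars for the standard error and filled points for an adjusted p under 0.05. Tnnt1 lies to the right and Tpm3 to the left in both chambers, and Tnni1 is at 1.63 in ventricles and at 0.10 in atria.

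In ventricles, 3 of the 10 members were called. Tnni1 and Tnnt1 rose, 2 of 10 where 5.73% of 16909 genes tested rose, and Tpm3 fell, 1 of 10 where 4.2% of genes fell. Both increases were at least 1.5-fold (3.0% of genes), and 0 members fell by that much (1.76% of genes). In 6 members the groups did not overlap, as in 31.2% of genes. The median log2 fold change was −0.21 in the members and −0.01 in all genes tested. Mitochondrially encoded genes held between 15.3% and 18.4% of counts in CUG960 ventricles and between 19.6% and 20.5% in control ventricles, and the same number of members, 3, was called when library scaling left these genes out.

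Tnni1 had the largest fold change of the members in ventricles. It was at 0.235, 0.332 and 0.152 CPM in the ventricles of V327, V333 and V334, from 26, 35 and 17 counts. In those of V119, V120 and V123 it was at 0.796, 0.587 and 0.847 CPM, from 116, 81 and 106 counts. All CUG960 ventricles were above all control ventricles, 3.10-fold on the fitted scale (log2 fold change 1.63, SE 0.33, edgeR adjusted p = 0.0166). Even so, Tnni1 in CUG960 ventricles was 0.00726% ± 0.0019 of troponin I RNA per length, against 0.00207% ± 0.000505 in control ventricles. The difference of these shares, 0.00519 percentage points, depends on the length used, and was 0.0138 with coding length and 0.0123 without length correction. The call was lost without V119 (adjusted p = 0.0517), V123 (0.0504) or V327 (0.056), with log2 fold changes between 1.53 and 1.62 in these fits.

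Because Tnni1 was far higher in atria, its ventricular level was set beside atrial genes of the same libraries. As a share of the same mouse's atrial CPM, ventricular Tnni1 was 1.83%, 2.01% and 1.08% in V327, V333 and V334, and 3.98%, 4.58% and 6.23% in V119, V120 and V123. For Myl7 this share was 0.279%, 0.175% and 0.690% in the controls, and 0.0058%, 0.0105% and 2.22% in CUG960 mice. Sln, the atrial inhibitor of the calcium pump, was at 0.223%, 0.226% and 0.529% in controls and at 0.0162%, 0.0226% and 1.45% in CUG960 mice. In V119 and V120 Tnni1 was above every control and Myl7 and Sln were below every control, and V123 had the most of all 3 genes. For Nppa, the atrial natriuretic peptide gene, the share was 0.295%, 0.328% and 0.58% in controls and 0.76%, 1.81% and 1.28% in CUG960 mice, above every control in all 3 as for Tnni1. The part of atrial RNA in the Tnni1 result was not tested. Of the 7 atrial markers, Nppa, the most abundant of them, rose in ventricles (62.6 ± 19.5 to 154 ± 68.9 CPM), Bmp10 fell (2.86 ± 0.772 to 0.173 ± 0.124 CPM) and 5 were not called. Of all genes tested there, 5.73% rose and 4.2% fell. None of the 7 atrial markers was at 0, and they summed to 127, 129 and 196 CPM in control ventricles and to 129, 284 and 359 CPM in CUG960 ventricles.

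**Figure D4:**
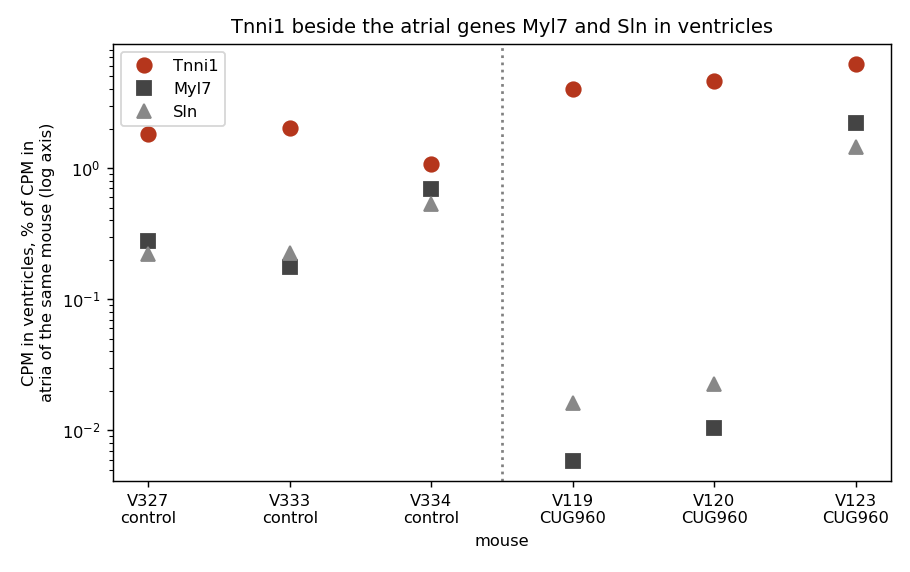
For each mouse, the ventricular CPM of Tnni1, Myl7 and Sln is plotted as a percent of the atrial CPM of the same mouse (log axis), with controls left and CUG960 mice right of the dotted line. Tnni1 is between 3.98% and 6.23% in the CUG960 mice and between 1.08% and 2.01% in controls, while Myl7 and Sln are lowest in V119 and V120 and highest in V123.

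Tnnt1 rose in ventricles from 5.13, 6.05 and 5.23 CPM in controls to 8.41, 9.59 and 7.59 CPM in CUG960 mice. The groups were well apart, with an increase of 56.0% (log2 fold change 0.64, SE 0.12, edgeR adjusted p = 0.0129), and the call was lost without V327 (0.0547). Tnnt1 lies 1922 bases from Tnni3 on chromosome 7, and Tnni3 overlapped between the groups (4794 ± 681 CPM in controls and 4404 ± 402 CPM in CUG960 mice). Tpm3 was at 49.3, 49.0 and 51.6 CPM in control ventricles and at 40.9, 40.8 and 38.0 CPM in CUG960 ventricles. This decrease of 20.0% (log2 fold change −0.32, SE 0.07, edgeR adjusted p = 0.0218) was close in size to that in atria, and its call was lost without V119, V120, V123, V327 or V334 (adjusted p between 0.0523 and 0.0926).

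None of the 4 cardiac members was called by edgeR in ventricles. Tnnt2, the cardiac troponin T, was at 6877, 8050 and 6139 CPM in controls and at 4845, 5964 and 5219 CPM in CUG960 mice, with every CUG960 library below every control (log2 fold change −0.39, SE 0.13, adjusted p = 0.082). DESeq2 called it (adjusted p = 0.00868), as did edgeR without a filter on low counts (0.0409). The ratio of Tnnt2 to Tnni3 per length was 0.399, 0.400 and 0.405 in control ventricles and 0.316, 0.336 and 0.345 in CUG960 ventricles, with no overlap. Tnnc1 was at 2286, 2664 and 2069 CPM in controls and 1738, 2131 and 1946 CPM in CUG960 mice, which overlapped (log2 fold change −0.27, SE 0.12, edgeR adjusted p = 0.186). Tpm1 was nearly equal in both groups, at 7141 ± 638 and 7071 ± 246 CPM.

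Nor were the fast skeletal genes called in ventricles. Tnnt3 was at 17 to 19 counts in control and 7 to 14 counts in CUG960 ventricles (log2 fold change −1.09, SE 0.43, edgeR adjusted p = 0.147), and Tnni2 was at 24 to 36 and 15 to 26 counts (−0.98, SE 0.36, 0.125). Mybpc2 fell there as well, from 71.7 ± 5.15 to 15.1 ± 3.04 CPM (log2 fold change −2.24, SE 0.14, edgeR adjusted p = 4e-05). Of the 7 fast skeletal markers tested in ventricles, 1 rose and 1 fell (5.73% and 4.2% of all genes tested). Pvalb was the marker that rose, at 0.0157 ± 0.0199 CPM in controls and 0.266 ± 0.139 CPM in CUG960 mice. Myh4 was at 0 counts in all control and 1 to 4 counts in CUG960 ventricles, Myh1 at 0 to 1 and 4 to 7 counts, and Myh2 at 1 and 3 to 15 counts, each higher in CUG960 mice without overlap and too low to be tested. Myf6 was at 0 counts in all control ventricles and in the CUG960 ventricles of V119 and V123. Tpm2 did not follow its atrial direction, at 65.4, 83.1 and 73.2 CPM in control and 52.9, 59.9 and 86.2 CPM in CUG960 ventricles, with overlap (log2 fold change −0.15, SE 0.17, edgeR adjusted p = 0.616). Of the 9 smooth muscle markers, 0 rose and 5 fell in ventricles (5.73% and 4.2% of all genes tested), with a median log2 fold change of −0.63. Tagln, which rose in atria, was among those that fell (log2 fold change −0.63, edgeR adjusted p = 0.0426). Its effect in ventricles minus that in atria was −1.85 on the log2 scale (edgeR adjusted p = 0.0445).

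Whether the CUG960 effect differed between chambers was tested over all 12 libraries. Of 18327 genes, 1.38% passed for this difference, and so did 1 of the 10 members, Tnni1. Its log2 fold change was 1.54 higher in ventricles than in atria (SE 0.35, edgeR adjusted p = 0.0498). With the mouse as a block the call held. It was lost with RLE size factors (0.0503), with upper quartile scaling (0.0537) and on leaving out any single mouse (adjusted p between 0.0601 and 0.179). For Tpm2 the effect was 0.66 lower in ventricles (SE 0.22, edgeR adjusted p = 0.224), and for Tnnc1 it was 0.38 higher (SE 0.17, 0.374), so the changes of Tpm2, Tnnc1, Tnnt3 and Tnni2 that were called in atria alone were not shown to differ between chambers.

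Within each family, per kilobase of transcript, the makeup moved by small amounts. Tnnt2 was 99.8% of troponin T RNA in control ventricles and 99.5% in CUG960 ventricles, while the share of Tnnt1 was 0.246% ± 0.0186 and 0.5% ± 0.0439. In atria Tnnt1 was 0.281% ± 0.0249 in controls and 0.414% ± 0.054 in CUG960 mice. The difference in the Tnnt1 share was smaller by other lengths. It was 0.255 percentage points in ventricles, 0.0937 with coding length and 0.0813 without length correction, and 0.133, 0.0489 and 0.0424 in atria. Tpm2 was 6.13% ± 0.689 of tropomyosin RNA in control atria and 9.05% ± 0.951 in CUG960 atria, and Tpm1 was 90.1% ± 0.677 and 88.1% ± 0.87. None of these pairs of groups overlapped. Each had an exact two-sided permutation p of 0.1, the smallest that 3 mice against 3 allow, and 0.16 after adjustment over 24 shares.

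**Figure D5:**
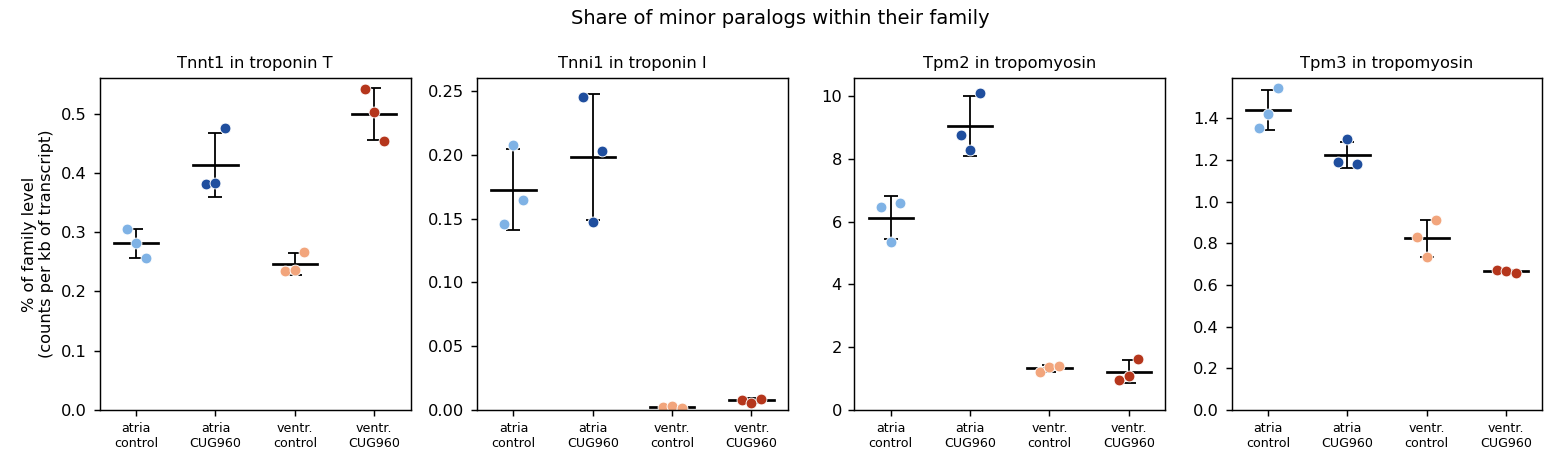
The share of each minor paralog in its family's RNA (percent of counts per kb of transcript, linear axis from 0) is plotted per library in the 4 groups, with the mean and SD of 3 mice. Tnnt1 is above control in both chambers of CUG960 mice, Tpm2 is above control in atria, and Tpm3 is below control in both.

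Genes that work with the troponins were called in both directions. Of 22 thin filament partners tested in atria, 1 rose and 6 fell (7.95% and 6.62% of all genes tested), with a median log2 fold change of −0.22. Xirp1 and Xirp2, which encode Xin actin-binding repeat proteins of the intercalated disc, had the decreases over 1.5-fold, from 429 ± 185 to 208 ± 6.48 CPM and from 454 ± 10.4 to 229 ± 27.1 CPM. Tpm4, the nonmuscle tropomyosin of the list, fell in both chambers, with log2 fold changes of −0.57 (SE 0.09) in atria and −0.47 (SE 0.11) in ventricles. Tnnc2, the fast skeletal troponin C, was at 3 counts or fewer in control atria and was not tested there. In ventricles 1 of 23 rose and 4 fell (5.73% and 4.2% of all genes, median −0.13), with decreases over 1.5-fold in Tmod4, a tropomodulin that caps pointed ends (10.8 ± 1.19 to 6.57 ± 0.501 CPM), and Lmod1, a leiomodin of smooth muscle (5.09 ± 1.15 to 3.03 ± 0.459 CPM).

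Of the thick filament partners tested in atria, 3 of 16 rose and 0 fell, where 7.95% of all genes tested rose and 6.62% fell. None of the 3 rose by 1.5-fold, and the median log2 fold change of all 16 was −0.05. In ventricles 3 of 17 rose and 0 fell, where 5.73% and 4.2% of all genes did, with a median of 0.25. Myom2, an M-band protein that crosslinks thick filaments, rose 2.22-fold in ventricles, from 825 ± 17.8 to 1827 ± 133 CPM (log2 fold change 1.15, SE 0.09, edgeR adjusted p = 9.22e-05). Mybphl, a myosin-binding protein H-like gene of atria, rose from 3.15 ± 1.45 to 14.2 ± 8.44 CPM, with overlap between the groups. It was at 728 ± 66.7 CPM in CUG960 atria, and the V123 ventricles held 2.22% of the same mouse's atrial Myl7. The part of atrial RNA in the Mybphl result was not tested.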

How the data were processed

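The deposited table held expected counts per gene, which the authors estimated with RSEM 1.3.1 on GRCm38 (mm10), 1 column per library. All values were whole numbers, neither scaled nor filtered. Libraries were made with a stranded kit, and the strand setting of the counting is not given in the sources used here. Coordinates are from GRCm38 annotation, and promoters from RefSeq.

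Counts were analyzed with edgeR 4.0.16 in R 4.3.3 (filterByExpr, TMM, glmQLFit and glmQLFTest) with Benjamini-Hochberg adjustment across every gene tested. Each chamber was fitted alone, each genotype alone for the chambers, and all 12 libraries for the difference of effects. The standard errors (SE) of log2 fold changes were derived from the quasi-likelihood test. Each is the size of the log2 fold change divided by the square root of the F statistic. Level per length used the longest annotated transcript. Family shares were compared by exact two-sided permutation tests. The steps were tested on simulated data. Tables and figures were made with Python 3.11.15, pandas 2.3.3, scipy 1.17.1 and matplotlib 3.10.9.

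The members and lists were chosen with earlier results of these data known. All 10 members were named, as were partners past an adjusted p of 0.05 and a fold change of 1.5, each marker list's most abundant gene and markers at 0, and the 3 genes most like each member that changed at least 1.5-fold. Tpm4, Tnnc2 and the other marker genes were named after their values were seen. Promoters were first searched over 300 bases, and the window was then limited to 100 bases before the start.

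Atria and ventricles came from the same mice. After subtraction of group means, libraries of the same mouse correlated at r between 0.045 and 0.32, and those of different mice at r between −0.386 and 0.155. Alternatives were DESeq2 1.42.0, RLE size factors, upper quartile scaling, TMM without mitochondrially encoded genes, no filter, at least 10 counts in every library, a single fit of all libraries, fold change limits, a block for mouse and fits without 1 mouse. Tnnt3, Tnni2 and ventricular Tnni1 rest on low counts, which are given beside them.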

Additional observations from a re-analysis of the deposited data

Results flagged for a closer look

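Tnni1 was flagged because its CUG960 effect differed between chambers. The log2 fold change was 1.54 higher in ventricles than in atria (SE 0.35, edgeR adjusted p = 0.0498), with all 3 CUG960 ventricles above all 3 control ventricles and with overlap in atria. Ventricular Tnni1 rests on 17 to 116 counts per library, and the V123 ventricles also had the highest Myl7 of the ventricles (55.9 CPM). The call was lost on leaving out any 1 of the 6 mice, with log2 differences between 1.32 (without V334) and 1.74 (without V333) and adjusted p between 0.0601 and 0.179.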

How the results depend on the processing

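Calls of members in atria (6) went to 3 with a fold change of at least 1.5, to 1 with a log2 limit of 1.5, and to between 2 (without V119) and 6 without 1 mouse, with 3 without V120, V333 or V334. In ventricles (3) there was 1 with that log2 limit and between 0 (without V327) and 3 without 1 mouse, with 1 without V119 or V123. Chamber differences went from 9 to 2 in controls and from 7 to 3 in CUG960 mice under the same log2 limit, and were between 8 and 9 and between 5 and 7 without 1 mouse. The difference of effects (1) was 0 with RLE size factors, with upper quartile scaling, and without any 1 mouse. Fewer libraries, or a higher limit, enter these fits by construction, and the cause of the other losses was not tested. With the mouse as a replicate block there were 9, 7 and 1 calls, as without it. Of the single genes' values under all alternatives, 0 called values changed sign, and 6 uncalled values did on leaving out 1 mouse, among them Tnni1 in atria (−0.13 without V119). Over the 10 members there were 130 such values in atria and 128 in ventricles. The call was lost in 16 and 9 of them, while 2 in ventricles gained a call. These totals are not loss rates, since 4 members in atria and 7 in ventricles had no call to lose. Scaling did not move the median of all genes by over 0.1. Of 20 family shares, 7 moved with coding length and 8 without length correction.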

Other observations

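The genes whose levels were most like those of the members over the 12 libraries were found by Pearson's r of log2(CPM + 0.5) among the 13112 genes whose mean reached 1 CPM. The libraries share the chamber and genotype groups, so these values are descriptions. Tnnc1 was most like Ckm, the muscle creatine kinase (r = 0.996), Ndufa4l2 (0.992) and Tmem63b (0.991). Tnni1 was most like Mmgt2 (0.997), Tll1 (0.995) and Sept3 (0.994), and Tnnt1 like Anapc16 (0.979), Akip1 (0.979) and Echdc2 (0.977). For the low Tnnt3 the closest were Stmnd1 (0.96), Chd6 (0.93) and Hjurp (0.927), and for Tnni2 Pdzd4 (0.96), Tnip1 (0.948) and Arpc1b (0.946).

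Fibroblast markers were called in atria but not in ventricles, and none of the 8 passed the test of the difference of effects, with the lowest edgeR adjusted p, 0.0507, in Postn. Of 8 markers 3 fell in CUG960 atria (Col1a2, Pdgfra and Postn) and 0 rose, where 6.62% of all genes tested fell and 7.95% rose, with a median log2 fold change of −0.33. Their sum, led by Dcn, was 2245, 2584 and 2625 CPM in control atria and 2126, 2214 and 1888 CPM in CUG960 atria. Of the 6 ventricular markers, 2 rose in CUG960 ventricles (Irx4 and Mybpc3) and 1 fell (Hey2), where 5.73% and 4.2% of genes did, and in atria 1 of 5 tested rose (Pln) and 1 fell (Hey2).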
